A study of Mus musculus with 30 samples.

Results

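Heart muscle burns fatty acids and passes many of them through a small, fast-turning store of triglyceride in cytosolic lipid droplets. The 10 genes described here encode the enzymes that fill and empty that store, out of 13575 genes in the deposited table. They were taken by gene symbol: the assembly enzymes Gpam, Agpat2, Lpin1, Dgat1 and Dgat2, the lipases Pnpla2, Lipe, Mgll and Ces1d, and the droplet coat protein Plin5. All 10 were found, each on a single row, and all 10 passed the filter on low values that left 13256 genes for the test. The series asks what the REV-ERB nuclear receptors, repressors within the circadian clock, do in the heart. Its RNA libraries come from hearts of mice aged 2 months with the atria trimmed away, taken at ZT10, that is, 10 h after lights on. There were 3 libraries labelled CM-RevDKO, the cardiomyocyte double knockout of Nr1d1 and Nr1d2, and 3 labelled floxed control. The genotype is spelled out in the labels' protocol for the ChIP samples as aMHC-Cre, positive or negative, with both Rev-erba and Rev-erbb floxed. The alpha myosin heavy chain promoter drives Cre in cardiomyocytes, so other cells of the CM-RevDKO heart keep both receptors. If the controls of the RNA comparison also lacked Cre, Cre itself and loss of the receptors cannot be told apart.

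Triglyceride is built on glycerol 3-phosphate in an ordered chain. A glycerol-3-phosphate acyltransferase such as GPAM adds the first fatty acid, an acyltransferase of the AGPAT family such as AGPAT2 adds the next and makes phosphatidate, a lipin such as LPIN1 removes the phosphate to leave diacylglycerol, and DGAT1 or DGAT2 adds the last fatty acid. Breakdown runs in the other direction: adipose triglyceride lipase (ATGL, the product of Pnpla2) takes the first fatty acid off, hormone-sensitive lipase (Lipe) acts mainly on diacylglycerol and monoacylglycerol lipase (Mgll) releases the glycerol. In mice, loss of ATGL loads the heart with triglyceride, and PLIN5, a droplet protein of oxidative tissues, shields droplets from it. Carboxylesterase 1D (Ces1d) is a triglyceride hydrolase best studied in mouse liver and adipose tissue.

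REV-ERB receptors bind DNA at the ROR element, a stretch rich in A and T before the letters AGGTCA, so the promoter windows of RefSeq (build GRCm38.p6, that is mm10) were read for these letters. A window runs from 250 bases before a gene's start to 50 bases after it, 300 bases in all. The 7 members with a window, in 11 windows, were Gpam, Agpat2, Lpin1, Pnpla2, Lipe, Mgll and Plin5; Dgat1, Dgat2 and Ces1d had none. Printed 5′ to 3′ are a window of Gpam and that of Agpat2, which fell, those of Pnpla2 and Plin5, which were higher in every CM-RevDKO library without passing the test, and for comparison one of Arntl, the clock gene that REV-ERB is known to repress. They are the windows of Gpam at chr19:55099428-55099727 (minus strand), Agpat2 at chr2:26604368-26604667 (minus), Pnpla2 at chr7:141454938-141455237 (plus), Plin5 at chr17:56117499-56117798 (minus) and Arntl at chr7:113207261-113207560 (plus). Capitals mark 3 motifs on either strand: the nuclear receptor core AGGTCA, the E-box letters CACGTG that BMAL1 and CLOCK are known to bind, and the letters TTANNTAA of the D-box type.
Gpam: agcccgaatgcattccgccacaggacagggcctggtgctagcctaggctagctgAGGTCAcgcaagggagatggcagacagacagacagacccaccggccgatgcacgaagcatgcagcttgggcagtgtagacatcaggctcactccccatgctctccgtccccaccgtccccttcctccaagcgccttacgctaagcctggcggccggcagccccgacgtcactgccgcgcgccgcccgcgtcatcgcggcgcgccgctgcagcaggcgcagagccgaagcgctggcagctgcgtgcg
Agpat2: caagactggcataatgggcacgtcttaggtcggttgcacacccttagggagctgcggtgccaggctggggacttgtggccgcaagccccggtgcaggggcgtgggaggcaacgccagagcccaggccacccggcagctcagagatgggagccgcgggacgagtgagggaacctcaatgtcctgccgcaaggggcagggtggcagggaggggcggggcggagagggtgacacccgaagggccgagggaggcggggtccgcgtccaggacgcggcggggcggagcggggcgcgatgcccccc
Pnpla2: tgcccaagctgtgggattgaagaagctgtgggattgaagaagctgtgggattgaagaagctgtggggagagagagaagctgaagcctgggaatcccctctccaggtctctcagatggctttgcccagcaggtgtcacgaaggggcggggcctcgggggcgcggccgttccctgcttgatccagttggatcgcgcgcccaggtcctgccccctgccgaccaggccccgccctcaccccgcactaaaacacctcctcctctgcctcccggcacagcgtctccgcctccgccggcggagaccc
Plin5: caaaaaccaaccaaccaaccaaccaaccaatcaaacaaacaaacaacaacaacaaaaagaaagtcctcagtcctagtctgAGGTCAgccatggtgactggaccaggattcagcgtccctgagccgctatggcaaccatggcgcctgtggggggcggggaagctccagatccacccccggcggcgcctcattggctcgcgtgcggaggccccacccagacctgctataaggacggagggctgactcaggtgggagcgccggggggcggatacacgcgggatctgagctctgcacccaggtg
Arntl: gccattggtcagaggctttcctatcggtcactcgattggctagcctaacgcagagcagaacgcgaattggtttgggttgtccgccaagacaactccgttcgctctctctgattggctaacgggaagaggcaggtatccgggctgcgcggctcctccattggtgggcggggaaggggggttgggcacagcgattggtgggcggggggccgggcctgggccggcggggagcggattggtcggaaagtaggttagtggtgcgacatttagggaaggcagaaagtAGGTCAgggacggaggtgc
AGGTCA, on either strand, was in 4 of the 11 member windows (36.4%), 1 of Gpam, 1 of Lpin1 and both of Plin5, and in 16.3% of all 32851 RefSeq windows of the same length. The windows of Plin5 overlap in part but each holds its own match. The longer core TAGGTCA, which contains AGGTCA, was in none of the 11 and in 2.61% of all windows; the printed Arntl window holds it. CACGTG was in 1 window of Lipe and 1 of Mgll and in 7.15% of all windows, and TTANNTAA was in none of the 11 and in 6.0% of all. Of the 4 members that fell, Gpam had a match to AGGTCA and Agpat2 had none, and Dgat2 and Ces1d had no window. A match describes letters in a window and says nothing of binding.

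The values were read as FPKM, fragments scaled by transcript length and library size, and changes are on the scale of log2(FPKM + 1). Sequencing depth is unknown. The labels do not say that replicates came from separate mice, so each p-value measures the spread among these 6 libraries, which may be technical. The summed values ran over 702391 to 712158 FPKM in the CM-RevDKO libraries and 678722 to 691212 FPKM in the control libraries, and the 10 members held 0.0526% to 0.0628% of them in CM-RevDKO and 0.0718% to 0.0772% in control. Nr1d1, a targeted gene, had 47.4 to 55.6 FPKM in libraries labelled CM-RevDKO and 15.0 to 23.9 FPKM in those labelled control, against the direction of the label. Nr1d2 had 26.6 to 28.8 FPKM in libraries labelled CM-RevDKO and 30.6 to 40.3 FPKM in those labelled control. Gene-level values can count exons outside the deletion and transcripts of other heart cells, so neither gene checks the labels; CM-RevDKO and control are used here as the names on the labels, and all directions rest on them. Arntl had 12.5 to 13.0 FPKM in libraries labelled CM-RevDKO and under 0.5 FPKM in all those labelled control. With RNA from ZT10 alone, a changed level and a changed timing of a rhythm cannot be told apart. In heart pieces, fewer cells of a type and less RNA per cell cannot be told apart either. The 11 cardiomyocyte markers summed to 41201 to 43960 FPKM in the CM-RevDKO libraries and 38748 to 41604 FPKM in the control libraries. Some libraries stood apart in other markers: 9 of 12 adipocyte markers were in the table, and they summed to 130, 82.9 and 32.0 FPKM in CM-RevDKO replicates 1, 2 and 3, against 35.5, 51.3 and 26.0 FPKM in control replicates 1, 2 and 3. The 7 atrial markers in the table summed to 712, 196 and 233 FPKM in the CM-RevDKO replicates, against 144, 89.6 and 134 FPKM in the control replicates.

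In the libraries labelled CM-RevDKO, 4 of the 10 genes fell and none rose. The falls covered 3 of the 5 assembly enzymes, Gpam, Agpat2 and Dgat2, and 1 of the 4 lipases, Ces1d. The same test called 2.5% of all 13256 genes, 1.26% of them higher and 1.24% lower (limma, two-sided, Benjamini-Hochberg adjusted p under 0.05). At an unadjusted p under 0.05 stood 7 of the 10 genes, and 2206 of all genes. The groups had no overlap in 8 of the 10 genes, 3 of them higher and 5 lower in CM-RevDKO, where 23.1% of all genes did not overlap, 12.6% higher and 10.5% lower. The median change of the 10 was -0.44 on the log2 scale, that of all genes 0.02. By mean FPKM, which is per length, the CM-RevDKO order was Pnpla2, Dgat2, Plin5, Gpam, Mgll, Agpat2, Lpin1, Dgat1, Ces1d and Lipe, and the control order was Dgat2, Pnpla2, Ces1d, Gpam, Plin5, Mgll, Agpat2, Lpin1, Lipe and Dgat1. Mgll, Agpat2 and Lpin1 lay within their spread of each other in CM-RevDKO, as did Dgat1, Ces1d and Lipe. Ces1d thus ranked 9 of 10 in CM-RevDKO and 3 of 10 in control.

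**Figure D1:**
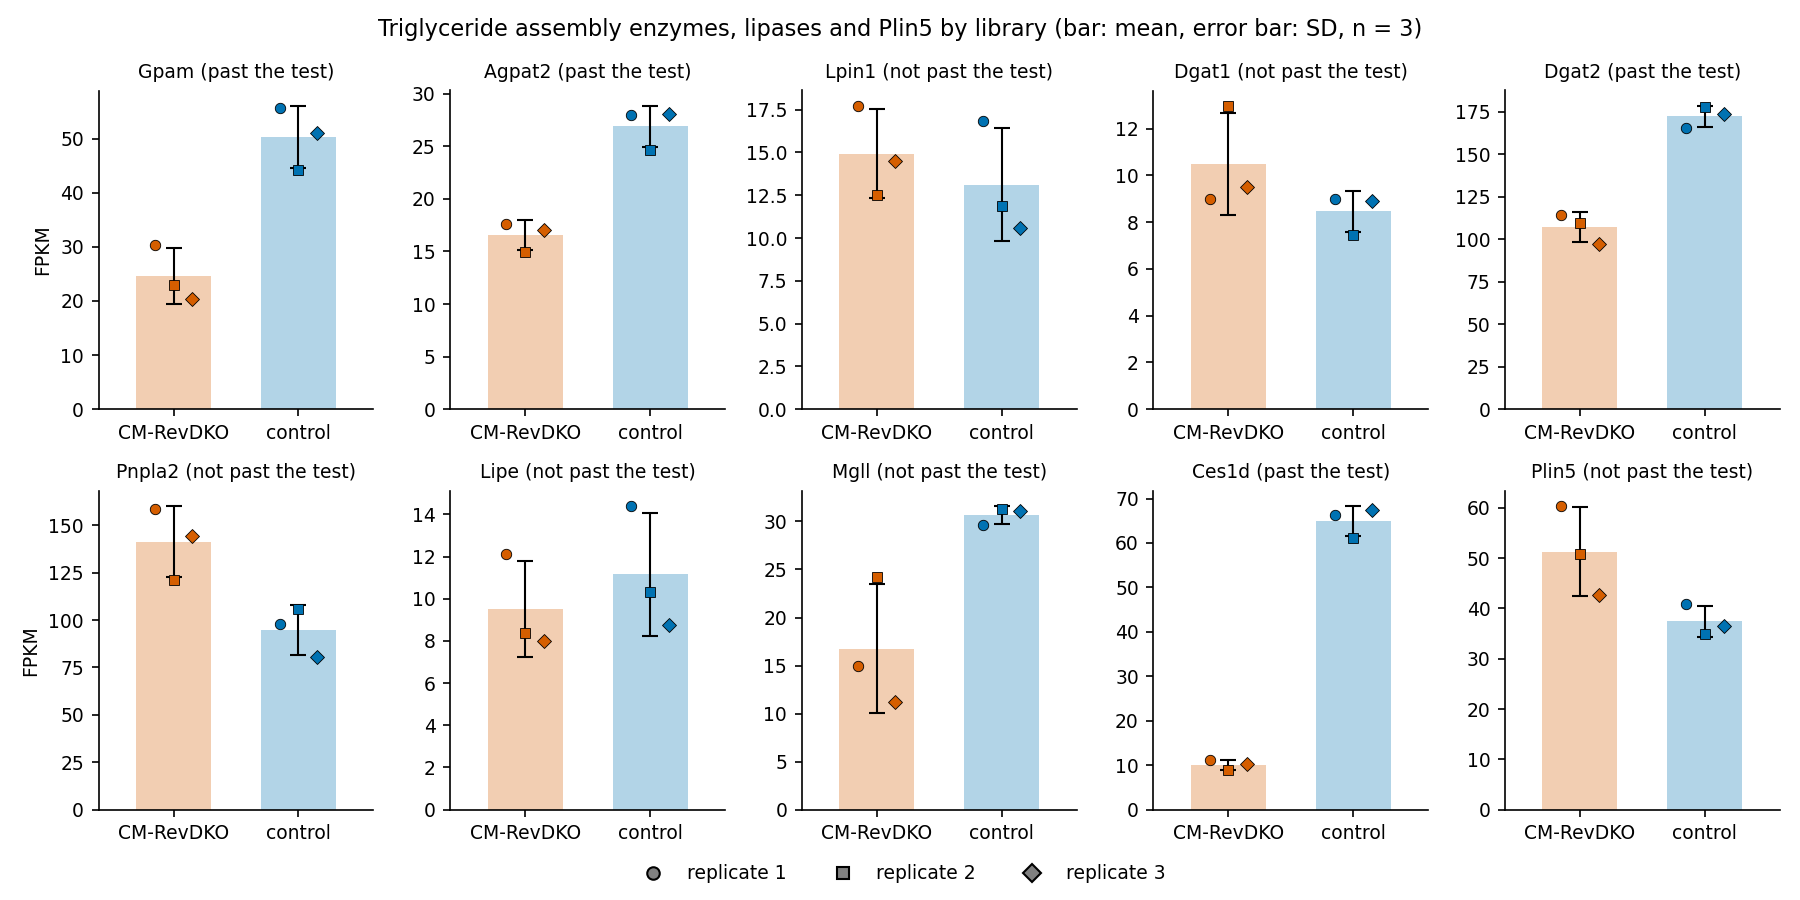
Expression in FPKM of the 10 genes in each library, CM-RevDKO left and control right; bars are means, error bars SD (n = 3 each), and marker shapes give the replicate number. Gpam, Agpat2, Dgat2 and Ces1d passed the test, all lower in CM-RevDKO; Pnpla2 and Plin5 had every CM-RevDKO value above every control value without passing.

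The first acylation step was lower. Gpam (ENSMUSG00000024978, chr19:55067635-55127319), the mitochondrial glycerol-3-phosphate acyltransferase, had 30.3, 23.0 and 20.4 FPKM in CM-RevDKO replicates 1 to 3, against 55.7, 44.2 and 51.0 FPKM in the control replicates. Every CM-RevDKO value lay well below every control value. Its mean was 24.6 ± 5.13 FPKM in CM-RevDKO and 50.3 ± 5.77 FPKM in control (SD, n = 3 each), a log2 fold change of -1.02 (SE 0.16, limma adjusted p = 0.0211). Its family holds a pair of further measured genes, listed under the older symbols Agpat9 and Agpat6 (Gpat3 and Gpat4 in RefSeq), whose enzymes sit in the endoplasmic reticulum. Agpat9 also fell, to 2.71, 2.81 and 2.72 FPKM in CM-RevDKO, against 6.79, 5.30 and 4.83 FPKM in control (log2 fold change -0.81, SE 0.13, limma adjusted p = 0.0245). Agpat6 had 13.3, 12.1 and 12.1 FPKM in CM-RevDKO and 12.6, 10.8 and 13.0 FPKM in control, with overlapping groups (log2 fold change 0.04, 95% interval -0.20 to 0.29, limma adjusted p = 0.890). The share of Gpam in the summed FPKM of the family was 57.9% to 65.4% in CM-RevDKO libraries and 73.3% to 74.1% in control libraries, and the sum itself was 35.2 to 46.3 FPKM in CM-RevDKO and 60.3 to 75.2 FPKM in control. The noncoding genes Gm31356 and Gm31418 overlap Gpam, and their reads cannot be told apart without strand, which the sources used here do not state for the counting. The call of Gpam ended without CM-RevDKO replicate 2 (limma adjusted p = 0.0848), control replicate 1 (0.101) or control replicate 3 (0.0939), and that of Agpat9 in 5 of its 6 such fits (up to 0.0888).

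At the step that makes phosphatidate, Agpat2 fell while its paralog Agpat3 rose. Agpat2 (ENSMUSG00000026922, chr2:26593057-26604417), whose human counterpart is mutated in a congenital lipodystrophy, had 17.6, 14.9 and 17.0 FPKM in CM-RevDKO, against 28.0, 24.6 and 28.1 FPKM in control. The groups did not overlap, with means of 16.5 ± 1.43 FPKM in CM-RevDKO and 26.9 ± 1.97 FPKM in control (SD, n = 3 each) and a log2 fold change of -0.67 (SE 0.10, limma adjusted p = 0.0211). Agpat3, an acyltransferase linked to phospholipids with polyunsaturated fatty acids, had 84.4, 82.3 and 75.4 FPKM in CM-RevDKO, against 51.0, 50.1 and 53.3 FPKM in control (log2 fold change 0.64, SE 0.09, limma adjusted p = 0.0117). It was the most abundant of Agpat1 to Agpat5, the 5 genes summed here, in every library. Agpat3 made up 64.9% to 69.4% of their summed FPKM in CM-RevDKO and 49.3% to 50.2% in control, and Agpat2 made up 12.6% to 14.6% in CM-RevDKO and 24.2% to 27.4% in control. The sum over these 5 genes was 116 to 125 FPKM in CM-RevDKO and 102 to 106 FPKM in control, so less Agpat2 RNA stood beside a higher total of the 5. The sum leaves out Lclat1, another gene of the assembly list. Lclat1 had 39.0, 34.7 and 31.2 FPKM in CM-RevDKO, against 44.0, 42.0 and 45.7 FPKM in control (limma adjusted p = 0.178). The ratio of Agpat2 to Agpat3 was 0.209, 0.181 and 0.226 in CM-RevDKO, against 0.549, 0.491 and 0.527 in control. This ratio is one of 9 chosen after the values were seen. Its exact two-sided permutation p was 0.1, the smallest that 3 against 3 allows (0.113 adjusted over the 9). Both genes already separated the groups, in opposite directions, so this p was fixed in advance. Agpat2 lost its call without CM-RevDKO replicate 2 (limma adjusted p = 0.0843), control replicate 1 (0.101) or control replicate 3 (0.0940), and Agpat3 without CM-RevDKO replicate 2 (0.0631) or any control replicate (0.0502 to 0.0665).

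The lipin step did not pass the test. Lpin1 (ENSMUSG00000020593, chr12:16535669-16653903), a phosphatidate phosphatase that also acts as a transcriptional coactivator, had 17.7, 12.5 and 14.5 FPKM in CM-RevDKO and 16.8, 11.9 and 10.6 FPKM in control. The groups overlapped almost fully, and the change of 0.19 on the log2 scale had a 95% interval of -0.25 to 0.63 (limma adjusted p = 0.672). Ntsr2 overlaps Lpin1 and may share reads with it. Lpin1 made up most of the lipin RNA in both groups, 76.0% to 83.3% of the summed FPKM of Lpin1, Lpin2 and Lpin3 in CM-RevDKO and 73.0% to 78.4% in control.

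At the last acylation step, Dgat2 fell and Dgat1 did not pass the test. Dgat2 (ENSMUSG00000030747, chr7:99153663-99182713), the form tied in other tissues to newly made fatty acids, was the most abundant assembly enzyme, with 114, 110 and 97.0 FPKM in CM-RevDKO, against 165, 178 and 173 FPKM in control. Its replicates lay close together within each group and far apart between groups. The means were 107 ± 8.80 FPKM in CM-RevDKO and 172 ± 6.28 FPKM in control (SD, n = 3 each), a log2 fold change of -0.69 (SE 0.09, limma adjusted p = 0.0118). Dgat1 (ENSMUSG00000022555, chr15:76502012-76512021), an unrelated protein that catalyses the same reaction and re-esterifies incoming fatty acids, had 8.99, 13.0 and 9.49 FPKM in CM-RevDKO and 8.98, 7.45 and 8.92 FPKM in control. Its groups only just failed to touch, since the lowest CM-RevDKO value and the highest control value were nearly equal (log2 fold change 0.27, SE 0.15, limma adjusted p = 0.425). Dgat2 RNA per length exceeded Dgat1 RNA in every library, by 12.7, 8.45 and 10.2 times in CM-RevDKO and 18.4, 23.9 and 19.4 times in control. The ratios had no overlap (exact permutation p = 0.1, 0.113 adjusted over the 9 ratios). Dgat2 and Dgat1 already separated the groups in opposite directions, so this p was fixed in advance. Dgat2 lost its call without CM-RevDKO replicate 2 (limma adjusted p = 0.0532) or any control replicate (0.0564 to 0.0625).

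**Figure D2:**
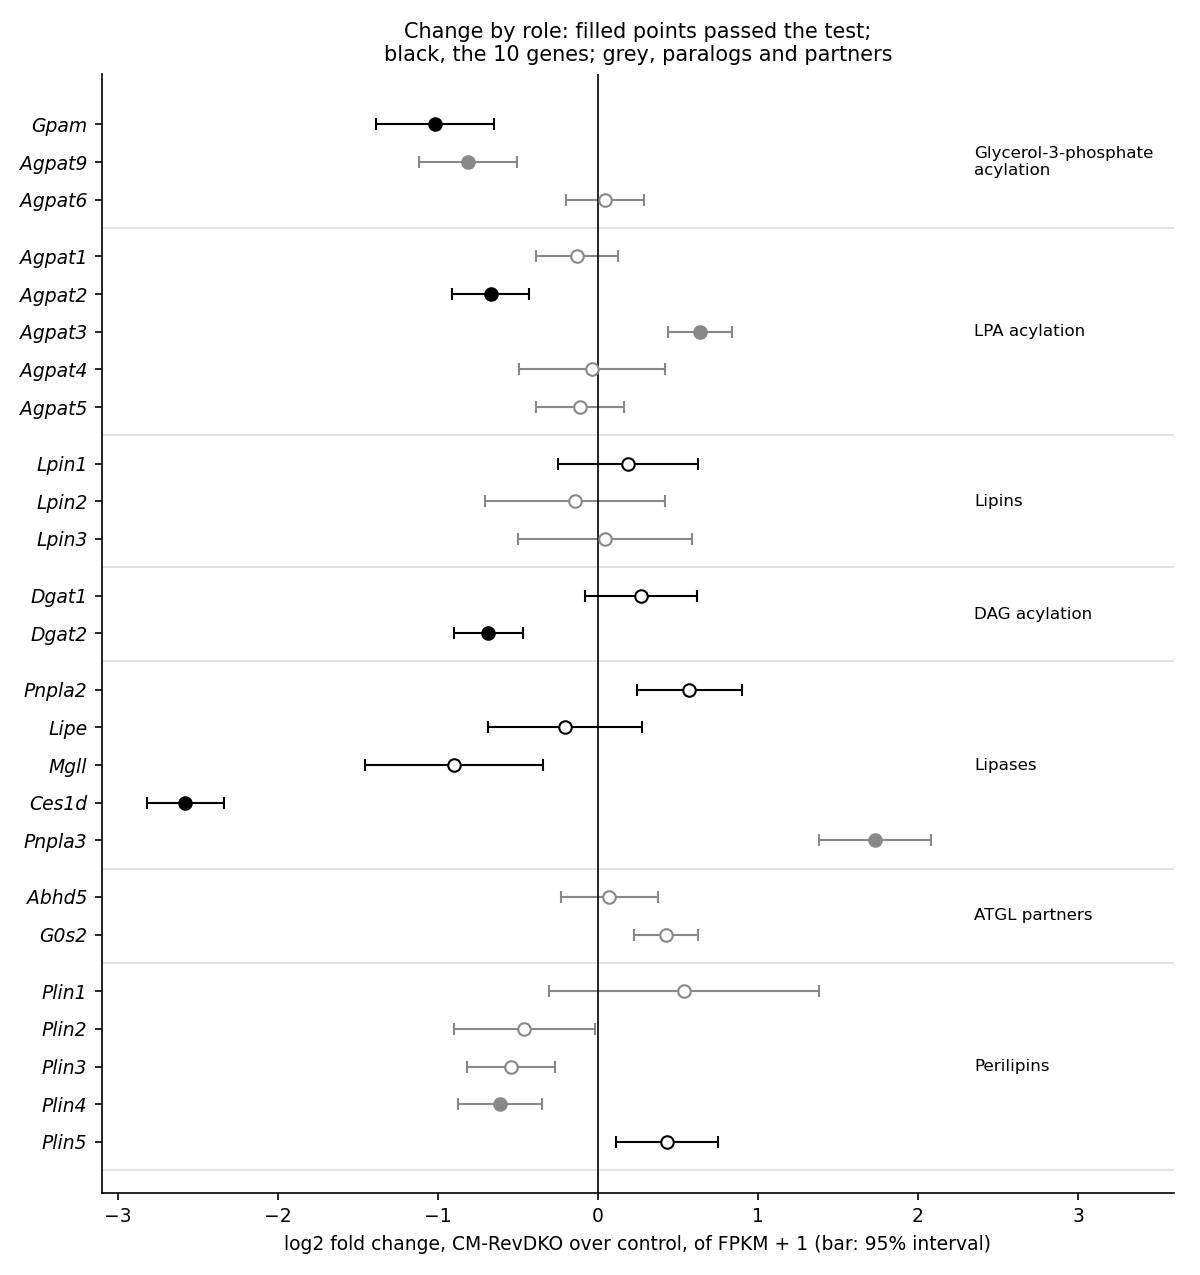
Change in CM-RevDKO over control, as log2 fold change of FPKM + 1, for the members (black) and their measured paralogs and partners (grey), grouped by step; bars are 95% intervals from limma, and filled points passed the test. Steps hold genes of opposite sign, such as Agpat2 at -0.67 beside Agpat3 at 0.64, and Ces1d at -2.58 beside Pnpla3 at 1.73.

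Among the lipases, Ces1d fell and no other member passed the test. Ces1d (ENSMUSG00000056973, chr8:93166072-93197804) had 11.1, 8.92 and 10.2 FPKM in CM-RevDKO, against 66.2, 61.2 and 67.5 FPKM in control. No other member separated the groups so widely. The mean was 10.1 ± 1.09 FPKM in CM-RevDKO and 65.0 ± 3.30 FPKM in control (SD, n = 3 each), 6.45 times lower, and the log2 fold change was -2.58 (SE 0.10, 95% interval -2.82 to -2.34, limma adjusted p = 6.30e-05). Its call held in all 18 alternative fits, at adjusted p up to 0.00635. In the control libraries Ces1d was the second most abundant of the 4 lipases, at 29.3% to 36.0% of their summed FPKM, and in CM-RevDKO it held 5.48% to 5.89%. Ces1d lies in a cluster of 8 Ces1 genes of similar sequence on chromosome 8 (93020214 to 93379777), of which Ces1c, Ces1d and Ces1f are in the table, so reads may be split among copies and the value carries that uncertainty.

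Pnpla2 (ENSMUSG00000025509, chr7:141455188-141460743), which encodes ATGL, the enzyme of the first lipolytic step, had 158, 121 and 144 FPKM in CM-RevDKO, against 98.1, 106 and 80.3 FPKM in control. All CM-RevDKO values lay above all control values, yet the log2 fold change of 0.57 (SE 0.14, 95% interval 0.24 to 0.90) did not pass the test (limma adjusted p = 0.0924), nor in any of the 18 alternative fits. Pnpla2 made up 74.5% to 83.1% of the RNA of the 4 lipases in CM-RevDKO and 42.8% to 50.8% in control. The ratio of Pnpla2 to Ces1d was 14.3, 13.6 and 14.1 in CM-RevDKO, against 1.48, 1.73 and 1.19 in control (exact permutation p = 0.1, 0.113 adjusted over the 9 ratios). Both genes already separated the groups, in opposite directions, so this p was fixed in advance. The ratio of Pnpla2 (highest FPKM of the 4 lipases) to Dgat2 (higher FPKM than Dgat1) was 1.39, 1.11 and 1.49 in CM-RevDKO. It was 0.593, 0.596 and 0.463 in control, with the same exact p, fixed in the same way.

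Lipe and Mgll act after ATGL. Lipe (ENSMUSG00000003123, chr7:25379527-25398486), hormone-sensitive lipase, had 12.1, 8.38 and 8.0 FPKM in CM-RevDKO and 14.4, 10.3 and 8.75 FPKM in control, with overlapping groups (log2 fold change -0.21, SE 0.21, limma adjusted p = 0.674). Mgll (ENSMUSG00000033174, chr6:88724412-88828360), monoacylglycerol lipase, had 14.9, 24.2 and 11.2 FPKM in CM-RevDKO, against 29.6, 31.3 and 31.1 FPKM in control. Its control values were nearly equal and its CM-RevDKO values all lower but scattered. The log2 fold change of -0.90 (SE 0.24, 95% interval -1.46 to -0.34) did not pass the test (limma adjusted p = 0.113). Without CM-RevDKO replicate 2, the library nearest to the controls, it was -1.18 and passed (limma adjusted p = 0.0196). The noncoding genes 4732471J01Rik and Gm26588 overlap Lipe and Mgll, and without strand their reads cannot be told apart.

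The partners of ATGL and its closest relative were measured too. Pnpla3, which encodes adiponutrin, a droplet protein related to ATGL, rose to 3.48, 3.76 and 2.88 FPKM in CM-RevDKO, against 0.352, 0.404 and 0.192 FPKM in control. The mean was 10.7 times higher in CM-RevDKO, from a low level, and the log2 fold change, which the added 1 FPKM holds down for such values, was 1.73 (SE 0.15, limma adjusted p = 0.00201). It passed whichever single library was left out, but not with CM-RevDKO replicate 3 alone against the controls (limma adjusted p = 0.121). Even so, Pnpla2 RNA exceeded Pnpla3 RNA by 32.2 to 50.1 times in CM-RevDKO and by 263 to 418 times in control. G0s2, the inhibitor of ATGL, had 47.4, 47.8 and 51.3 FPKM in CM-RevDKO, against 37.6, 34.4 and 36.4 FPKM in control, without overlap and just short of the test (log2 fold change 0.42, SE 0.09, limma adjusted p = 0.0528). Abhd5, the co-activator of ATGL, had 11.9, 11.9 and 15.9 FPKM in CM-RevDKO and 11.8, 12.2 and 13.3 FPKM in control (log2 fold change 0.07, limma adjusted p = 0.841). The ratio of Pnpla2 to G0s2 overlapped between groups, at 3.35, 2.54 and 2.81 in CM-RevDKO and 2.61, 3.08 and 2.21 in control (exact permutation p = 0.5). In a list of 15 other lipolysis genes Pnpla3 was the single gene past the test, and the median change was 0.07.

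Plin5 (ENSMUSG00000011305, chr17:56111597-56117606) had 60.3, 50.8 and 42.7 FPKM in CM-RevDKO, against 40.9, 34.9 and 36.6 FPKM in control. The lowest CM-RevDKO value stood just above the highest control value, and the log2 fold change of 0.43 (SE 0.14, 95% interval 0.11 to 0.75) did not pass the test (limma adjusted p = 0.175). Its neighbour Plin4, which lies 1648 bases away and encodes another droplet protein, fell, with 18.8, 20.6 and 23.9 FPKM in CM-RevDKO, against 34.5, 33.2 and 30.4 FPKM in control (log2 fold change -0.61, SE 0.11, limma adjusted p = 0.0396). The ratio of Plin5 to Plin4 was 3.21, 2.47 and 1.78 in CM-RevDKO, against 1.19, 1.05 and 1.20 in control. Plin3, a widely expressed perilipin, had 44.0, 43.7 and 44.9 FPKM in CM-RevDKO, against 70.2, 71.1 and 54.5 FPKM in control (limma adjusted p = 0.0675), and passed without control replicate 3 (0.0360). Plin2, the coat protein of droplets in most cells, had 25.1, 14.9 and 16.1 FPKM in CM-RevDKO and 27.4, 25.8 and 23.2 FPKM in control (limma adjusted p = 0.283), and passed without CM-RevDKO replicate 1 (0.0416). Plin5 thus made up 33.4% to 39.9% of perilipin RNA in CM-RevDKO and 21.1% to 25.2% in control, while the family sum was 128 to 151 FPKM in CM-RevDKO and 145 to 174 FPKM in control, with overlap. The call of Plin4 ended with every library left out except CM-RevDKO replicate 3 (limma adjusted p up to 0.140).

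**Figure D3:**
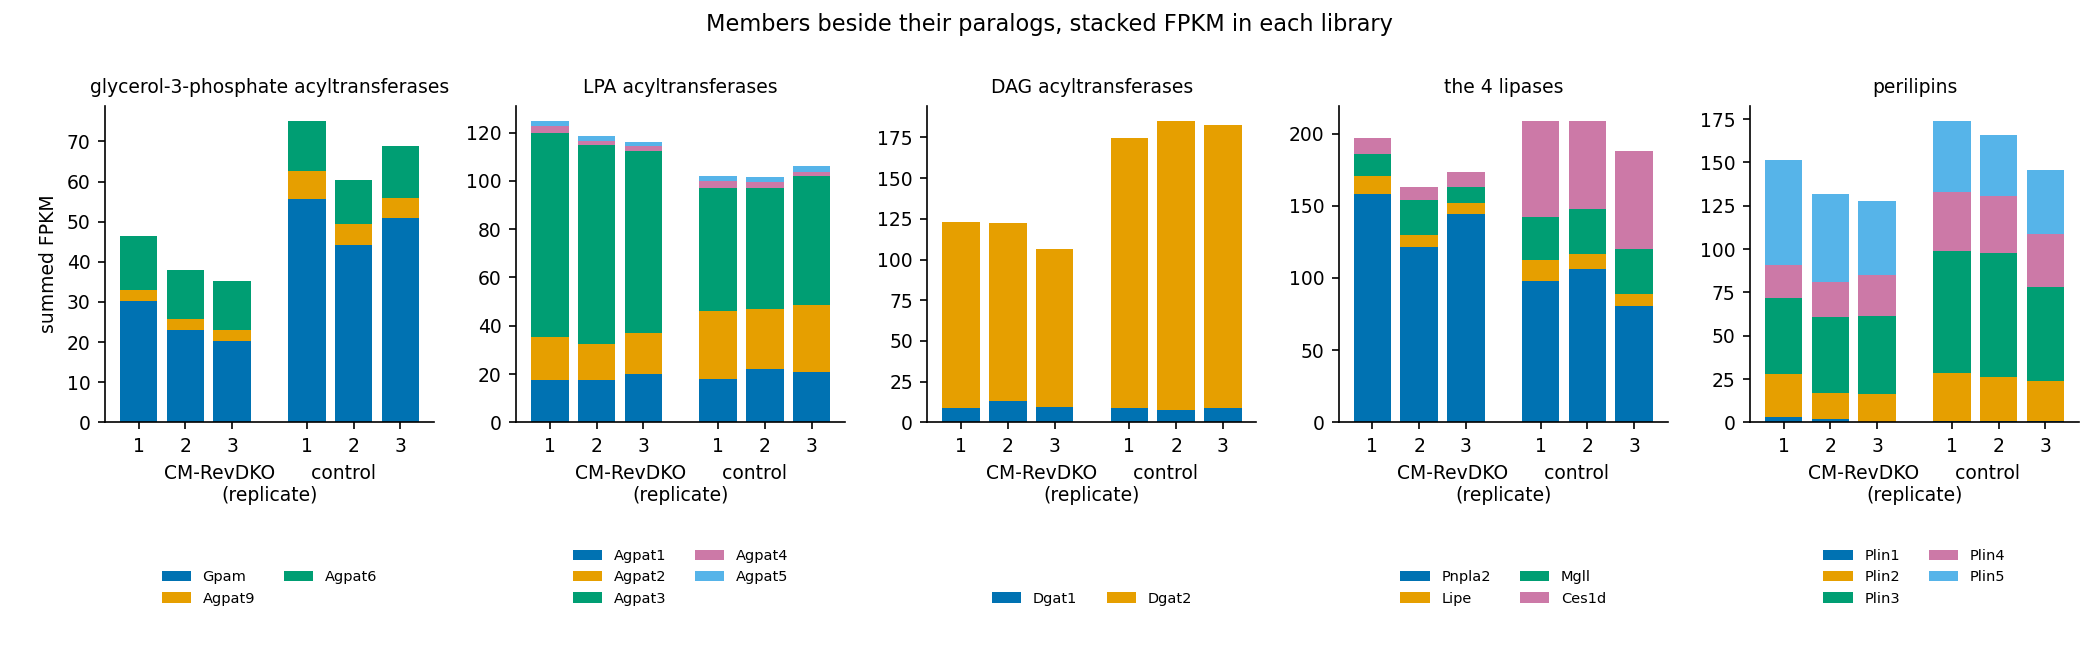
Stacked FPKM of each member and its measured paralogs by library, CM-RevDKO left and control right in each panel; colours name the genes. The total of Agpat1 to Agpat5 was higher in CM-RevDKO with less Agpat2 in it. The DGAT and glycerol-3-phosphate acyltransferase totals were lower. Pnpla2 took 74.5% to 83.1% of the lipase total in CM-RevDKO and 42.8% to 50.8% in control.

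Set against each other, both classes averaged lower in CM-RevDKO, and the lipase mean by more. The mean log2(FPKM + 1) of the 5 assembly enzymes was 4.72, 4.59 and 4.51 in CM-RevDKO, against 5.11, 4.89 and 4.97 in control, and that of the 4 lipases was 4.65, 4.53 and 4.36 in CM-RevDKO, against 5.40, 5.30 and 5.18 in control. Assembly minus lipase was 0.06, 0.05 and 0.15 in CM-RevDKO, against -0.29, -0.42 and -0.21 in control, without overlap, a difference of 0.39 beside a pooled SD of 0.0826. No test was run on this score, since its genes were chosen with results known. Its sign rested on Ces1d: with Ces1d left out, an alternative chosen after seeing the data, the difference was -0.21. On average the 3 remaining lipases then stood higher relative to assembly in CM-RevDKO, but this score overlapped between groups. The mean of those 3 lipases was 5.01, 4.94 and 4.65 in CM-RevDKO, against 5.17, 5.09 and 4.88 in control. In summed FPKM, where the abundant genes count most, the assembly enzymes had 189, 173 and 158 FPKM in CM-RevDKO, against 275, 266 and 272 FPKM in control, with a wide gap. The lipases had 197, 163 and 174 FPKM in CM-RevDKO and 208, 209 and 188 FPKM in control, with overlap. Within the lipase sums, higher Pnpla2 values in CM-RevDKO stood beside lower Ces1d and Mgll values.

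In the rest of the pathway, 6 of 107 genes in 6 lists passed the test (5.61%, where 2.5% of all genes did), 2 higher and 4 lower; nothing particular to these lists is read from that share. Among 22 other genes of triglyceride assembly 1 rose (Agpat3), 1 fell (Agpat9) and the median change was -0.08; the abundant Acsl1, which activates fatty acids, had 149, 136 and 142 FPKM in CM-RevDKO, against 195, 170 and 211 FPKM in control (limma adjusted p = 0.0916). Of 18 tested droplet genes 2 fell, Plin4 and Tmem159, and the median was -0.16. Tmem159 encodes promethin, a partner of seipin at forming droplets, and had 11.8, 10.1 and 10.2 FPKM in CM-RevDKO, against 15.3, 19.3 and 16.1 FPKM in control (log2 fold change -0.61, SE 0.12, limma adjusted p = 0.0471); its call ended with any library left out (limma adjusted p of 0.0638 to 0.155). Fitm1, a muscle protein of droplet formation, did not pass (limma adjusted p = 0.341). On the lipoprotein lipase route 1 of 15 genes fell, the fatty acid carrier Cd36, with 256, 287 and 264 FPKM in CM-RevDKO, against 417, 357 and 362 FPKM in control (log2 fold change -0.49, SE 0.10, limma adjusted p = 0.0471). Its call also ended with any library left out (limma adjusted p up to 0.155). Lpl, which frees fatty acids from lipoproteins at the vessel wall, had 816, 571 and 781 FPKM in CM-RevDKO and 639, 1340 and 970 FPKM in control, with wide spread and overlap (limma adjusted p = 0.507). Fabp3, the abundant fatty acid binding protein of heart, did not pass (limma adjusted p = 0.772). None of the 22 genes listed for the branches around phosphatidate and diacylglycerol passed, Chpt1 and Pcyt1a being the 2 most abundant (limma adjusted p = 0.743 and 0.625). None of 15 lipogenesis genes passed either, and the median change was 0.10. At an unadjusted p under 0.05 stood 5 of them, and 2206 of all 13256 genes. Of the 5, 4 were higher and 1 lower in CM-RevDKO. The 4 were Scd4 and Scd1, stearoyl-CoA desaturases, Fasn, fatty acid synthase, and Acly, ATP citrate lyase. Each was higher without overlap, as were 12.6% of all genes. Scd4 had 29.3, 18.5 and 13.9 FPKM in CM-RevDKO, against 6.56, 9.21 and 5.04 FPKM in control (log2 fold change 1.41, SE 0.28, limma adjusted p = 0.0522). Fasn had 4.96, 8.26 and 5.47 FPKM in CM-RevDKO, against 3.62, 2.96 and 3.28 FPKM in control (log2 fold change 0.73, SE 0.18, limma adjusted p = 0.0885). Scd1 and Acly had log2 fold changes of 0.81 and 0.32 (limma adjusted p = 0.298 and 0.246). The lower gene, Acacb, the acetyl-CoA carboxylase that restrains mitochondrial fatty acid entry, had 30.7, 29.4 and 34.8 FPKM in CM-RevDKO, against 46.6, 52.0 and 40.8 FPKM in control (limma adjusted p = 0.0697). Me1, malic enzyme, did not pass (limma adjusted p = 0.501).

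Several members are also adipocyte genes, so the adipocyte markers were set beside them library by library. Adipoq, which encodes adiponectin, had 6.96, 4.88 and 1.35 FPKM in CM-RevDKO and 1.06, 1.05 and 1.05 FPKM in control, and Cfd (adipsin) had 60.8, 31.3 and 7.98 FPKM in CM-RevDKO and 10.1, 6.52 and 5.65 FPKM in control. Retn (resistin) had 2.41, 3.04 and 0.523 FPKM in CM-RevDKO and 0.357, 0.209 and 0.144 FPKM in control. These 3 markers were high in CM-RevDKO replicates 1 and 2 and far lower in replicate 3. The list did not move as one. Slc36a2, an amino acid transporter, was lower in every CM-RevDKO library, at 5.80, 6.66 and 6.78 FPKM, against 7.30, 8.5 and 8.69 FPKM in control. Adig (adipogenin) had 1.26, 0.336 and 0 FPKM in CM-RevDKO, against 1.30, 0.753 and 1.11 FPKM in control. None of the 9 passed the test, and their median change was 0.33. An unadjusted p under 0.05 was found for 5 of them, and for 2206 of all 13256 genes. Without CM-RevDKO replicate 3 Adipoq, Cfd and Retn did pass (limma adjusted p of 0.00976 for Adipoq, 0.0206 for Cfd and 0.0162 for Retn). The 4 members that fell were lower in all 3 CM-RevDKO libraries. In replicate 3 they lay below the control mean by 1.26 (Gpam), 0.63 (Agpat2), 0.82 (Dgat2) and 2.56 (Ces1d) on the log2 scale. Mgll stood at -1.38 against the control mean in that library. Adipoq and Retn still exceeded every control in replicate 3, and Cfd did not. A fit of CM-RevDKO replicate 3 alone against the 3 controls assumes that the lone library varies as the controls do. It has no spread of its own in CM-RevDKO. Across the CM-RevDKO libraries Plin5, at 60.3, 50.8 and 42.7 FPKM, ran in the order of the summed adipocyte markers. Of the other members, Gpam, Dgat2 and Lipe ran in that order too. Agpat2, Lpin1, Dgat1, Pnpla2, Mgll and Ces1d did not. Among the markers Adipoq, Cfd, Car3, Pck1, Cyp2e1 and Adig ran in it, whereas Retn, Slc36a2 and Nnat did not. Each marker is itself part of the sum that sets this order. The part of adipocyte transcripts in the members' values, the falls included, was not tested. Myl7, an atrial myosin light chain, had 288, 67.6 and 87.8 FPKM in CM-RevDKO and 51.9, 27.8 and 45.4 FPKM in control. Every CM-RevDKO library exceeded every control in it, replicate 1 by the most. Of 6 tested atrial markers none passed. Without overlap stood 3 of them, Myl7, Myl4 and Sln, all higher in CM-RevDKO, where 12.6% of all genes were. Stard10 and Dkk3 overlapped, and Nr2f2 had a log2 fold change of -0.11 (limma adjusted p = 0.713). Bmp10, not tested, was at 0 FPKM outside CM-RevDKO replicate 1. The part of atrial transcripts in the members' values was not tested. None of the endothelial (10), fibroblast (8), macrophage (8), smooth muscle and pericyte (7) or cardiomyocyte (11) markers passed. Yet 7 of the 11 cardiomyocyte markers did not overlap between groups, 3 higher and 4 lower in CM-RevDKO, where 23.1% of all genes did not overlap. An unadjusted p under 0.05 was found for 6 of the 11, and for 2206 of all 13256 genes. Ttn, which encodes the giant sarcomere protein titin, had 36.6, 43.2 and 85.6 FPKM in CM-RevDKO, against 83.0, 79.2 and 77.3 FPKM in control (limma adjusted p = 0.322). Acta2, a smooth muscle actin, had 52.9, 46.1 and 71.5 FPKM in CM-RevDKO, against 34.5, 29.4 and 39.4 FPKM in control, without overlap (limma adjusted p = 0.103). The part of these shifts in the members' values was not tested.

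**Figure D4:**
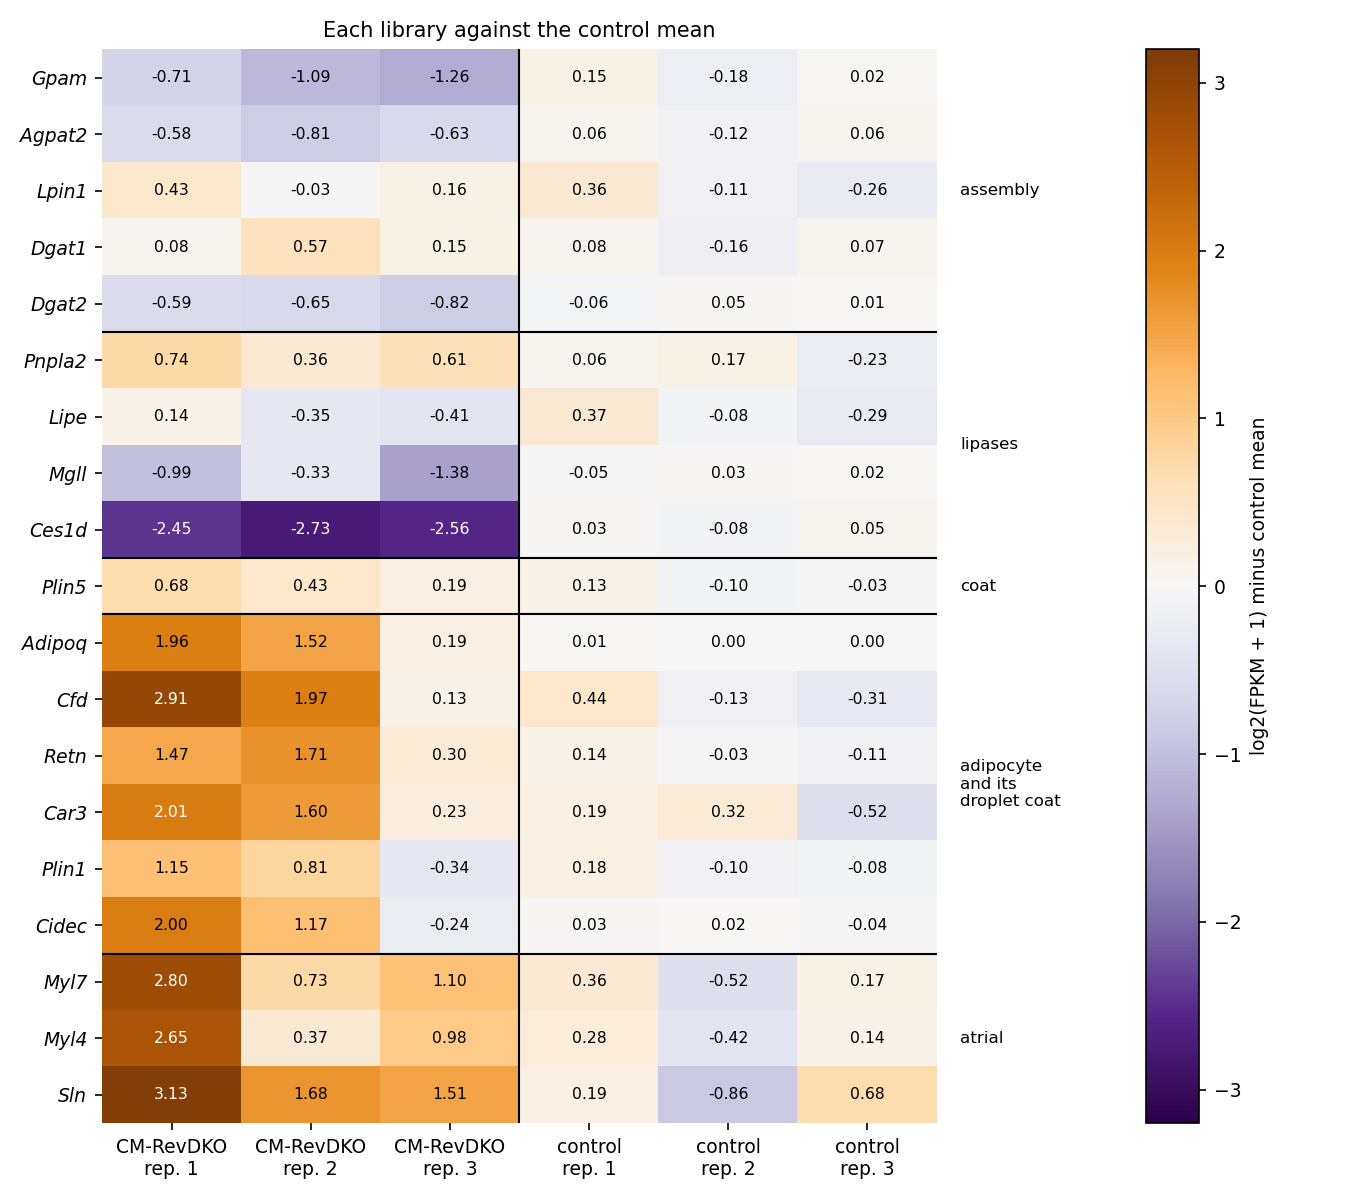
Difference of log2(FPKM + 1) from the control mean in each library, CM-RevDKO columns left and control columns right. Rows are the 10 members and some, not all, of the adipocyte and atrial markers. Purple is lower and orange higher. Ces1d stood at -2.45, -2.73 and -2.56 in the CM-RevDKO libraries, whereas Adipoq stood at 1.96, 1.52 and 0.19.

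The calls of the members depended on single libraries to unequal degrees. Directions were the same in all 18 alternative fits for each of the 10 genes. Fits that changed only the filter, variance model, fold threshold or replicate block keep the reported fold change, so their direction could not differ. Ces1d passed in all 18, Gpam in 13, Agpat2 in 11, Dgat2 in 10 and Mgll in 2, and Lpin1, Dgat1, Pnpla2, Lipe and Plin5 passed in none.

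**Figure D5:**
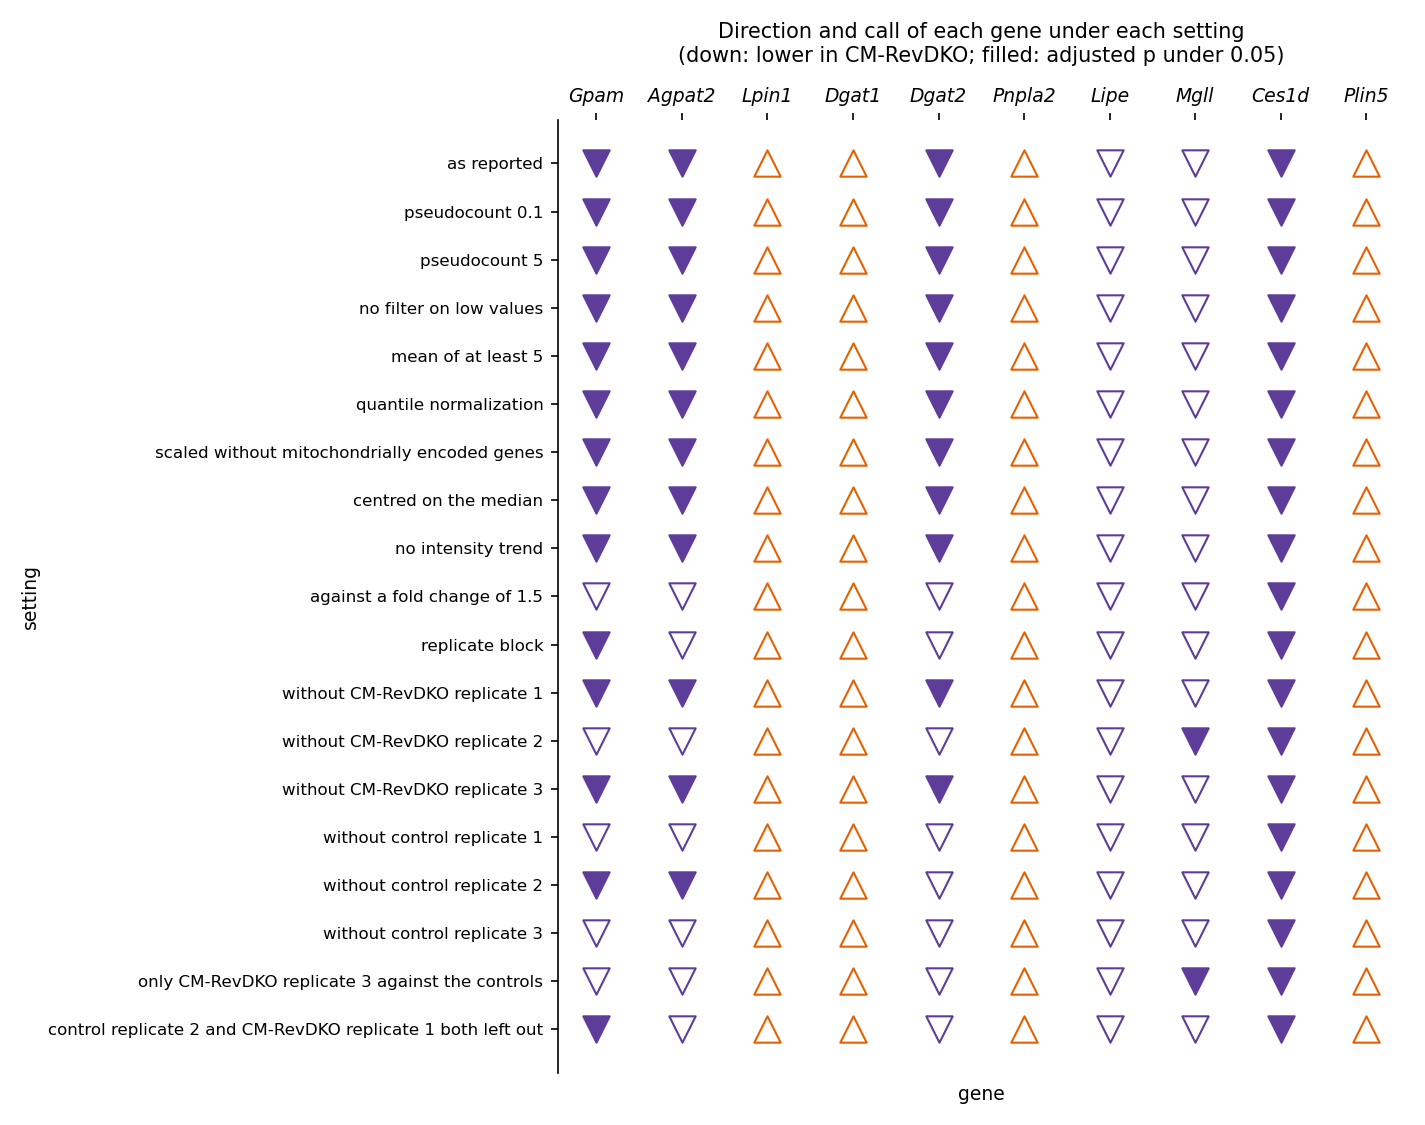
Direction and call of each of the 10 genes (columns) under the reported fit and 18 alternatives (rows); triangles pointing down are lower in CM-RevDKO, and filled triangles passed the test at an adjusted p under 0.05. Ces1d is filled in every row, and no gene changes direction. Rows that change only the filter, variance model, fold threshold or replicate block keep the reported fold change and could not change direction.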

How the data were processed

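RNA was measured in 3 CM-RevDKO and 3 control heart libraries; the other 24 of the 30 samples were not analysed here. The authors deposited 1 table of 13575 genes, whose values were read as FPKM. HISAT2, StringTie and mm10 are named per the submitters' processing notes, with no version; the header names no unit, and TPM would give the same values up to 1 constant per library. Depth cannot be recovered, so no counting interval is given.

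From the deposited FPKM values, log2(FPKM + 1) of 13256 genes (mean of 0.5 or more) went into a linear model with group as its term (limma 3.58.1, R 4.3.3; eBayes with trend). P-values were two-sided and adjusted by Benjamini-Hochberg over all genes, with a threshold of 0.05. The procedure was tested on simulated data. Other values were computed with pandas 2.3.3 and scipy 1.17.1. Alternatives changed the pseudocount, filter, scaling, variance model, fold threshold, replicate block and libraries. Coordinates (1-based) and promoter windows come from RefSeq GRCm38.p6.

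The members and lists were chosen with earlier results of these data known, and no p over them as sets is given. The named genes are the 10 members; from each of 6 pathway lists the genes past the test (up to the 6 with the smallest p) and the 2 most abundant; partners and paralogs of members; and adipocyte, atrial and label-check genes. Other paralogs of a family, Lclat1, Scd4, Scd1, Fasn, Acly, Adig, Slc36a2, Ttn, Acta2 and further markers in the text and heatmap lie outside that rule. Like the 9 ratios, they were chosen after their values were seen.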

Additional observations from a re-analysis of the deposited data

How the results depend on the processing

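Against 332 genes called in all (167 higher, 165 lower), of which 4 were members, a test against a fold change of 1.5 called 35 genes and 1 member (Ces1d). Leaving out 1 library at a time gave 120 to 322 genes and 1 to 4 members. The fewest members, Ces1d alone, were called without control replicate 1 or control replicate 3. CM-RevDKO replicate 3 alone against the controls gave 21 genes and 2 members (Ces1d and Mgll), and leaving out both control replicate 2 and CM-RevDKO replicate 1 gave 105 genes and 2 members (Ces1d and Gpam). With mitochondrially encoded genes kept out of the scaling, the calls split into 118 higher and 212 lower, and the same 4 members fell. With the replicate block, 115 genes and 2 members (Ces1d and Gpam) were called; the labels do not say that numbers pair libraries, and same-numbered libraries deviated from their group means with correlations of -0.04, -0.06 and 0.09. The difference of assembly minus lipase, 0.39, was 0.34 to 0.44 with 1 library left out, 0.28 with a pseudocount of 5, 0.15 with Plin5 counted among the lipases, 0.25 without Lpin1 and -0.21 without Ces1d. The cause of these moves was not tested, other than the weight of the genes left out. Depth is unknown, and with 3 libraries a group the exact permutation test cannot go below 0.1.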
